A study of Mus musculus with 4 samples.

Results

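The genes described here are 10 members of the TGF-beta pathway, taken by symbol from the deposited gene list: the ligands Tgfb1, Tgfb2 and Tgfb3, the latency protein gene Ltbp1, the receptors Tgfbr1, Tgfbr2 and Tgfbr3, the signal transducers Smad2 and Smad3, and the inhibitor Smad7. All 10 were found once each among 32285 genes. They were measured by single-nucleus RNA sequencing (droplet libraries of nuclei, read from the 3′ end of transcripts) in frozen liver of male mice that had eaten DDC, which damages the biliary tree and leads to duct expansion and scarring, for 4 weeks, starting when they were 10 to 11 weeks old. Wild-type mice (WT) gave 2 libraries, and mice in which Rbpj, the DNA-binding partner of Notch, was knocked out in hepatic progenitor cells (CKO) gave the other 2. All 4 libraries are from DDC-fed mice, so an undamaged liver is not analysed here. The labels name neither the Cre driver nor the deleted exons, and do not say whether replicates were separate animals, so the p-values measure only the spread between these libraries, which may be technical.

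TGF-beta ligands are secreted bound to their own propeptide and, through latent TGF-beta binding proteins such as LTBP1, are held in the matrix until integrins or proteases release them. The active ligand binds the type II receptor TGFBR2, which phosphorylates the type I receptor TGFBR1. TGFBR1 then phosphorylates SMAD2 and SMAD3, which enter the nucleus with SMAD4. TGFBR3 (betaglycan) presents ligand, TGF-beta 2 above all, and SMAD7, itself a target of the pathway, blocks the receptor. In injured liver the pathway is known for driving hepatic stellate cells and portal fibroblasts to make collagen.

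The libraries held 12261266 to 45619785 UMIs (unique molecules counted) in 5184 to 16000 barcodes, and both first replicates were deeper than both second replicates. Of 43664 barcodes 39017 were kept, and 17298 fell into 5 classes named from marker genes: 5552 hepatocyte-like, 2245 cholangiocyte-like, 2606 endothelial-like, 1378 mesenchymal-like and 5517 macrophage-like nuclei. The 289 T and NK lymphocyte-like, 173 B lymphocyte-like, 379 dendritic-like and 133 mesothelial-like nuclei were too few in some libraries to test, and 20745 barcodes resembled free RNA and were left unnamed. CKO replicate 2 had only 32 cholangiocyte-like, 90 mesenchymal-like, 151 endothelial-like and 169 macrophage-like nuclei, so its values for these classes rest on few UMIs. RNA free in the suspension made up an estimated 27.9% to 38.5% of UMIs in hepatocyte-like nuclei and 52.7% to 84.2% in the other 4 classes, and in all 5 the mean share was higher in CKO than in WT. Different clusters held a class in different libraries: macrophage-like nuclei of WT replicate 1 fell into 2 clusters of 1430 and 1264 nuclei, the second also held 404 of the 422 of WT replicate 2 and 168 of the 169 of CKO replicate 2, and 2198 of the 2227 of CKO replicate 1 formed a cluster of their own. Endothelial-like nuclei of CKO replicate 1 likewise stood apart (846 of 897), and hepatocyte-like nuclei formed 1 main cluster per library. Pairs of libraries shared 19 to 114 barcode sequences.

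The targeted gene was checked first. Rbpj stood at 78.0 and 65.9 CPM (UMIs per 1000000 UMIs of all genes) in cholangiocyte-like nuclei of WT replicates 1 and 2, and at 72.9 and 30.9 in those of CKO replicates 1 and 2, from 343, 43, 108 and 2 UMIs. CKO replicate 1 lay between the WT libraries, and the log2 change of -0.05 (SE 0.29) did not pass (edgeR quasi-likelihood test, adjusted p = 1). In macrophage-like nuclei Rbpj stood at 105, 101, 73.8 and 34.8 CPM, without overlap (-0.58, SE 0.29; edgeR, adjusted p = 0.983), and in the other 4 classes and over all kept nuclei its changes were -0.29 to 0.11. Since the deleted part is not given, and molecules counted from another part of the transcript would remain, these values do not check the genotype labels.

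Levels are in CPM, the UMIs of a gene per 1000000 UMIs of all genes, summed over the nuclei of a class in a library. Libraries are always given in the order WT replicate 1, WT replicate 2, CKO replicate 1, CKO replicate 2. Levels of different genes are not compared with each other. Free RNA shares differed between classes, so class orders are those of CPM as counted, unless free RNA is said to be taken out. The classes come from clustering these same nuclei (the 10 genes took no part in it), so differences between classes, and the counts of them past a threshold, are descriptions and not independent tests. In an edgeR fit of all class sums with the library as a block, 37 of the 50 contrasts of a gene in a class against the mean of the other classes passed the adjusted threshold of 0.05, 17 higher and 20 lower. The counts higher and lower were 1 and 6 in hepatocyte-like nuclei, where 34.4% and 36.3% of all genes passed, 5 and 4 in cholangiocyte-like nuclei (17.3% and 20.9%), 2 and 4 in endothelial-like nuclei (18% and 15.2%), 6 and 1 in mesenchymal-like nuclei (12.7% and 11.2%), and 3 and 5 in macrophage-like nuclei (23.7% and 22.6%).

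Among the 5 classes, the ligand gene Tgfb1 was highest in macrophage-like and endothelial-like nuclei, and Tgfb2 and Tgfb3 in cholangiocyte-like and mesenchymal-like nuclei. The bases before the transcript starts of Tgfb1 and Tgfb2 are shown with those of Tgfbr1, because these ligands were highest in different classes and Tgfbr1 had the smallest p between genotypes. Each stretch is the 250 bases up to the start in RefSeq on GRCm38.p6, written on the gene's own strand from 5′ to 3′, and capitals mark matches to short promoter motifs on either strand, none of which overlap. The TATA box, at which the basal transcription machinery binds, was searched as TATAAA. The E-box, bound by basic helix-loop-helix factors, was searched as CACGTG. The GC box, bound by SP family factors, was searched as GGGCGG.
Tgfb1, chr7:25686752-25687001, plus strand: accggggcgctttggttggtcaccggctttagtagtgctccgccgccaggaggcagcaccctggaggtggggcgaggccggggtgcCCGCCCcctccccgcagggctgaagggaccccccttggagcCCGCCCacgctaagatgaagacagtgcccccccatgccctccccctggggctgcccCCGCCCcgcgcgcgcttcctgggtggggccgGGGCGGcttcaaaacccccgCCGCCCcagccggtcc
Tgfb2, chr1:186705990-186706239, minus strand: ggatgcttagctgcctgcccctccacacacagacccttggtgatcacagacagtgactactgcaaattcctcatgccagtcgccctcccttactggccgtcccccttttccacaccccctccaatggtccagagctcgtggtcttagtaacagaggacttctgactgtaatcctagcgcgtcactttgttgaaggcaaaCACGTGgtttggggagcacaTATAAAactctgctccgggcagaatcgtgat
Tgfbr1, chr4:47352972-47353221, plus strand: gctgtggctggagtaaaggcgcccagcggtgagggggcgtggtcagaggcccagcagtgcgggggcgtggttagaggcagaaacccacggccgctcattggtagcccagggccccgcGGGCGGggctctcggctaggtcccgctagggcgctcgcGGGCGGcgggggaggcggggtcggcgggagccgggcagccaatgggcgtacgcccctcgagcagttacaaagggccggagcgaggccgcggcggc
The Tgfb1 stretch is 75.2% G and C and holds 5 GC boxes and neither other motif. The Tgfb2 stretch is 53.6% G and C, has its single TATA box starting 31 bases before the transcript start, 1 E-box upstream of it and no GC box. The Tgfbr1 stretch, before the upstream of its 2 listed starts, is 74.8% G and C and holds 2 GC boxes and neither other motif. Over 32851 promoter stretches of this length in the same table, 12.4% hold that TATA box, 6.02% that E-box and 32.7% that GC box on either strand. These matches are descriptions of the letters and no binding was measured.

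Tgfb1 (ENSMUSG00000002603, chromosome 7, 25687002 to 25705077 on GRCm38, plus strand) encodes the ligand best known from fibrosis. Its CPM in macrophage-like nuclei was 106, 55, 70.4 and 63.2 (mean 73.7 ± 22.5, SD, n = 4 libraries), from 1133 UMIs. Endothelial-like nuclei followed at 79.0, 58.7, 60.7 and 51.4. These 2 classes overlapped, and macrophage-like nuclei were the higher in 3 of 4 libraries. Both lay above mesenchymal-like (35.0 ± 15), cholangiocyte-like (20.6 ± 10) and hepatocyte-like nuclei (8.22 ± 3.86) in their means, with each neighbour in this order overlapping the next. An estimated 22.0% of the Tgfb1 UMIs of macrophage-like nuclei and 75.4% of those of hepatocyte-like nuclei were free RNA. Outside these classes, the untested dendritic-like nuclei stood at 108.5, 0, 60.9 and 94.2 CPM (64, 0, 14 and 3 UMIs). B lymphocyte-like nuclei, also untested, stood at 85.6, 0, 116 and 0 CPM (21, 0, 14 and 0 UMIs). Both overlapped the macrophage-like values.

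Tgfb2 (ENSMUSG00000039239, chromosome 1, 186622792 to 186705989, minus strand) stood at 160, 110, 140 and 61.8 CPM in cholangiocyte-like nuclei, from 706, 72, 207 and 4 UMIs. In mesenchymal-like nuclei it stood at 78.2, 86.5, 60.6 and 45.4. Cholangiocyte-like nuclei were higher in 4 of 4 libraries, although the ranges of the classes overlapped. Mesenchymal-like nuclei lay wholly above the other 3 classes, whose means were 13.1 to 16.8 and overlapped. Free RNA accounted for 7.96% of the Tgfb2 UMIs of cholangiocyte-like nuclei and for 90.2% of those of macrophage-like nuclei. The contrast of cholangiocyte-like nuclei with the mean of the other classes was 2.31 on the log2 scale (SE 0.14).

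Tgfb3 (ENSMUSG00000021253, chromosome 12, 86056745 to 86079041, minus strand) was sparse, with 176 UMIs in the 5 classes together. Cholangiocyte-like nuclei gave 65, 8, 8 and 0 of these (14.8, 12.3, 5.40 and 0 CPM) and mesenchymal-like nuclei 16, 4, 8 and 0 (8.02, 9.35, 7.70 and 0 CPM). The 2 classes overlapped, as did every neighbour in the order down to hepatocyte-like nuclei with 19 UMIs. In endothelial-like nuclei 98.0% of the 12 UMIs were accounted for by free RNA.

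Ltbp1 (ENSMUSG00000001870, chromosome 17, 75005568 to 75392512, plus strand), whose product anchors latent ligand in the matrix, was found mainly in mesenchymal-like nuclei. These stood at 148, 117, 90.4 and 73.8 CPM, wholly above cholangiocyte-like nuclei at 25.2, 23.0, 14.2 and 46.4, which in turn lay wholly above the other 3 classes with means of 1.77 to 5.44. The contrast of mesenchymal-like nuclei with the mean of the other classes was 4.43 on the log2 scale (SE 0.15), and free RNA accounted for 2.38% of their 453 UMIs. A smaller group of 133 mesothelial-like nuclei (73, 22, 16 and 22 per library) held another 122 Ltbp1 UMIs, 74, 11, 24 and 13 per library, or 217 to 536 CPM. Mesothelial-like nuclei also held Tgfbr3 at 214, 130, 223 and 251 CPM, Tgfb2 at 137, 87.0, 178 and 167, and Tgfb3 at 50.9, 43.5, 0 and 16.7 (10, 2, 0 and 1 UMIs). With 16 nuclei in CKO replicate 1 that class was not tested.

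**Figure D1:**
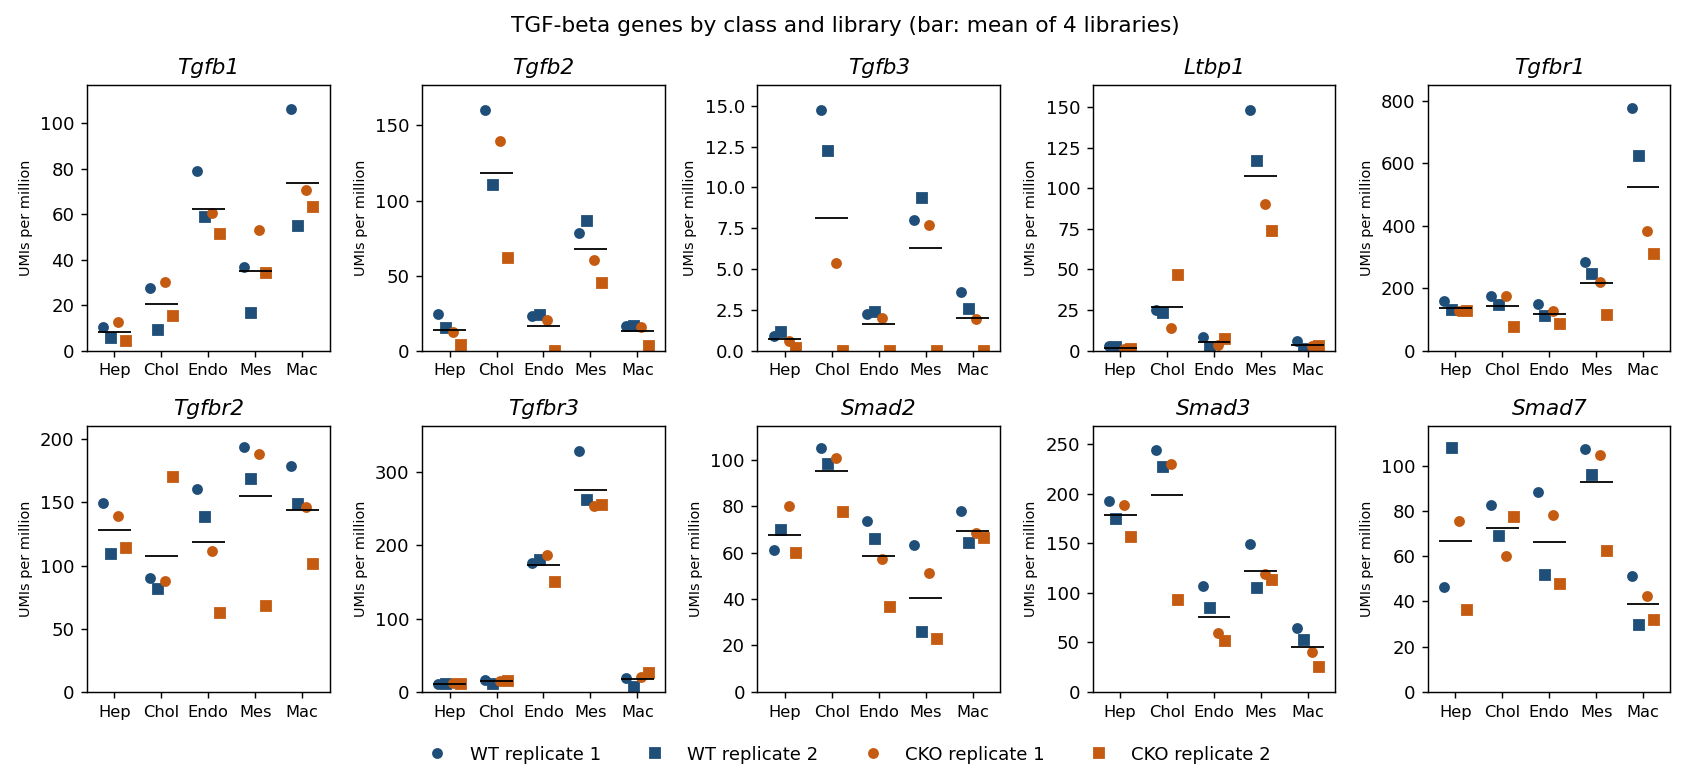
CPM (vertical axis, from 0, a separate scale per gene) of the 10 TGF-beta genes in hepatocyte-like (Hep), cholangiocyte-like (Chol), endothelial-like (Endo), mesenchymal-like (Mes) and macrophage-like (Mac) nuclei. Each point is a library and each bar the mean of 4; Tgfbr1 in macrophage-like nuclei runs from 310 to 775 with both WT libraries above both CKO libraries.

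Among the receptors, Tgfbr1 was highest in macrophage-like nuclei and Tgfbr3 in mesenchymal-like and endothelial-like nuclei of the 5 classes, and Tgfbr2 was present in all 5. Tgfbr1 (ENSMUSG00000007613, chromosome 4, 47353222 to 47414931, plus strand), the type I receptor kinase, stood at 775, 623, 383 and 310 CPM in macrophage-like nuclei, from 5179, 487, 1961 and 98 UMIs. Every one of these values was above every value of the next of the 5 classes, mesenchymal-like nuclei at 284, 245, 221 and 113. Outside these classes, the 379 dendritic-like nuclei, not tested, stood at 432, 299, 204 and 283 CPM (255, 9, 47 and 9 UMIs), which overlapped the macrophage-like values. With the estimated free RNA taken out, dendritic-like nuclei stood at 1106, 765, 635 and 827. Cholangiocyte-like (143 ± 45.9), hepatocyte-like (137 ± 15.4) and endothelial-like nuclei (118 ± 28.1) overlapped each other and the mesenchymal-like values. In the endothelial-like nuclei 63.7% of Tgfbr1 UMIs were accounted for by free RNA, against 14.0% in macrophage-like nuclei. Clustering within the endothelial-like class, chosen after the data were seen, set apart 176 nuclei with the macrophage marker Adgre1 among their leading genes. These held 209 of the 801 Tgfbr1 UMIs of the class, at 430 CPM with libraries summed, against 107 in the largest sub-cluster. With the estimated free RNA taken out, macrophage-like nuclei stood at 1290 to 2177 CPM and mesenchymal-like nuclei at 313 to 543.

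Tgfbr2 (ENSMUSG00000032440, chromosome 9, 116084293 to 116175360, minus strand), the type II receptor that first binds ligand, had class means between 107 and 155 CPM, and every neighbouring pair of classes overlapped. Mesenchymal-like nuclei stood at 194, 168, 188 and 68.1, and cholangiocyte-like nuclei, last in the order, at 90.2, 81.2, 87.8 and 170, the last from 11 UMIs. Cholangiocyte-like nuclei were the lowest of the 5 classes in 3 of 4 libraries. With the library as a block, the contrasts were -0.87 (SE 0.14) for cholangiocyte-like, 0.52 (SE 0.13) for mesenchymal-like and 0.34 (SE 0.12) for macrophage-like nuclei on the log2 scale. Free RNA accounted for 17.2% of the Tgfbr2 UMIs of hepatocyte-like nuclei and for 55.7% of those of cholangiocyte-like nuclei. With it taken out the order of means changed, to 361 CPM in macrophage-like, 304 in mesenchymal-like and 273 in endothelial-like nuclei. Cholangiocyte-like nuclei followed at 210 and hepatocyte-like nuclei at 159. The order of these last 2 means rests on CKO replicate 2 with its 11 UMIs. By library, cholangiocyte-like nuclei stood at 77.9, 135, 87.65 and 541 CPM and hepatocyte-like nuclei at 168, 143, 163 and 162. Hepatocyte-like nuclei were thus the higher in every library but CKO replicate 2.

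Tgfbr3 (ENSMUSG00000029287, chromosome 5, 107106570 to 107289629, minus strand), the co-receptor betaglycan, stood at 329, 262, 253 and 255 CPM in mesenchymal-like nuclei and at 176, 181, 187 and 151 in endothelial-like nuclei. The mesenchymal-like values lay wholly above the endothelial-like ones, and these wholly above the other 3 classes at 11.3 to 17.7 on average. Free RNA accounted for 4.66% and 9.95% of the UMIs in the first 2 classes and for 92.4% in macrophage-like nuclei. With the estimated free RNA taken out, mesenchymal-like nuclei stood at 713, 668, 708 and 891 CPM and endothelial-like nuclei at 534.5, 646, 806 and 907. The 2 classes then overlapped, and endothelial-like nuclei were the higher in both CKO libraries. The contrasts were 3.41 (SE 0.11) and 2.62 (SE 0.11) on the log2 scale.

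Smad3 and Smad2, the transducers, were both highest in cholangiocyte-like nuclei, and the inhibitor Smad7, as counted, in mesenchymal-like nuclei. Smad3 (ENSMUSG00000032402, chromosome 9, 63646767 to 63757994, minus strand) stood at 245, 227, 230 and 92.7 CPM in cholangiocyte-like nuclei, the last from 6 UMIs, and at 193, 174, 189 and 157 in hepatocyte-like nuclei. As counted, the 2 epithelial classes overlapped, and hepatocyte-like values lay wholly above those of mesenchymal-like (122 ± 19.3), endothelial-like (75.5 ± 25.0) and macrophage-like nuclei (45.6 ± 16.6). With the estimated free RNA taken out, cholangiocyte-like nuclei stood at 302.8 to 520.5 CPM, wholly above hepatocyte-like nuclei at 244 to 267. Mesenchymal-like nuclei at 242 to 360 and endothelial-like nuclei at 204 to 262 then overlapped the hepatocyte-like values, and macrophage-like nuclei stayed below them. Smad2 (ENSMUSG00000024563, chromosome 18, 76241580 to 76310963, plus strand) was highest in cholangiocyte-like nuclei at 105, 98.1, 101 and 77.3 CPM and lowest in mesenchymal-like nuclei at 63.2, 25.7, 51.0 and 22.7, with every neighbouring pair of classes overlapping. Macrophage-like nuclei therefore had the highest Tgfbr1 and the lowest Smad3 of the 5 classes, while their Smad2 (69.2 ± 6.16) lay second in the order. Smad7 (ENSMUSG00000025880, chromosome 18, 75367529 to 75395935, plus strand), the inhibitor, was highest in mesenchymal-like nuclei at 107, 95.8, 105 and 62.4 CPM and lowest in macrophage-like nuclei at 51.2, 29.4, 42.5 and 31.6, and the classes between overlapped. In hepatocyte-like nuclei Smad7 varied from 36.1 to 108 between libraries, highest in WT replicate 2. With the estimated free RNA taken out, mean Smad7 was 220 CPM in endothelial-like and 219 in mesenchymal-like nuclei. Cholangiocyte-like nuclei then stood at 162, hepatocyte-like nuclei at 88.5 and macrophage-like nuclei at 86.0.

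The genes whose CPM over the 20 class sums (5 classes in 4 libraries, which share their libraries and free RNA) followed each member most closely were named by Pearson's r of log2(CPM + 1). For Tgfb1 they were Slc9a9 (0.956), Ptprm (0.945) and Nod1 (0.942), and for Tgfb2 Cacna2d1 (0.937), Rragd (0.932) and Bicd1 (0.931). Tgfbr1 was followed by Itgb5 (0.953), Mitf (0.923) and Plekhm2 (0.921). Tgfbr3 was followed by Mir100hg (0.966), Adgra2 (0.939) and Eng (0.936), of which Eng encodes endoglin, another co-receptor of the family. Ltbp1 was followed by Lamb1 (0.962), Epha7 (0.956) and Grk5 (0.947), and Smad3 by Ankrd28 (0.941), Gm11266 (0.940) and Rere (0.937). The top values were lower for Smad2 (Slc37a1, 0.918), Tgfb3 (Palm, 0.919), Smad7 (Ptpn9, 0.849) and Tgfbr2 (Tmem241, 0.827).

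The comparison of CKO with WT asked whether any of the 10 genes differed in a class when Rbpj was missing from progenitor cells. None passed the adjusted threshold in any class. Of 44 tests (9 genes in hepatocyte-like, 10 in cholangiocyte-like, 8 in endothelial-like, 9 in mesenchymal-like and 8 in macrophage-like nuclei that passed the filter on low counts) 0 were called by edgeR's quasi-likelihood test and 0 by DESeq2, with 3 at an unadjusted p under 0.05 by edgeR and 1 by DESeq2. Over all genes tested, edgeR called 0% in hepatocyte-like, endothelial-like, mesenchymal-like and macrophage-like nuclei and 0.185% (19 of 10288) in cholangiocyte-like nuclei, 0.0972% higher and 0.0875% lower. The 3 with an unadjusted p under 0.05 were Tgfbr1 in macrophage-like nuclei (lower, as were 2.15% of all genes at that level), Tgfb3 in cholangiocyte-like nuclei (lower, 3.01%) and Tgfb1 in mesenchymal-like nuclei (higher, 3.91%). In hepatocyte-like nuclei 0 of 9 members reached that level, beside 0.853% of all genes higher and 0.921% lower. With 2 libraries a group an exact permutation test of a single gene could not give a p below 0.333.

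**Figure D2:**
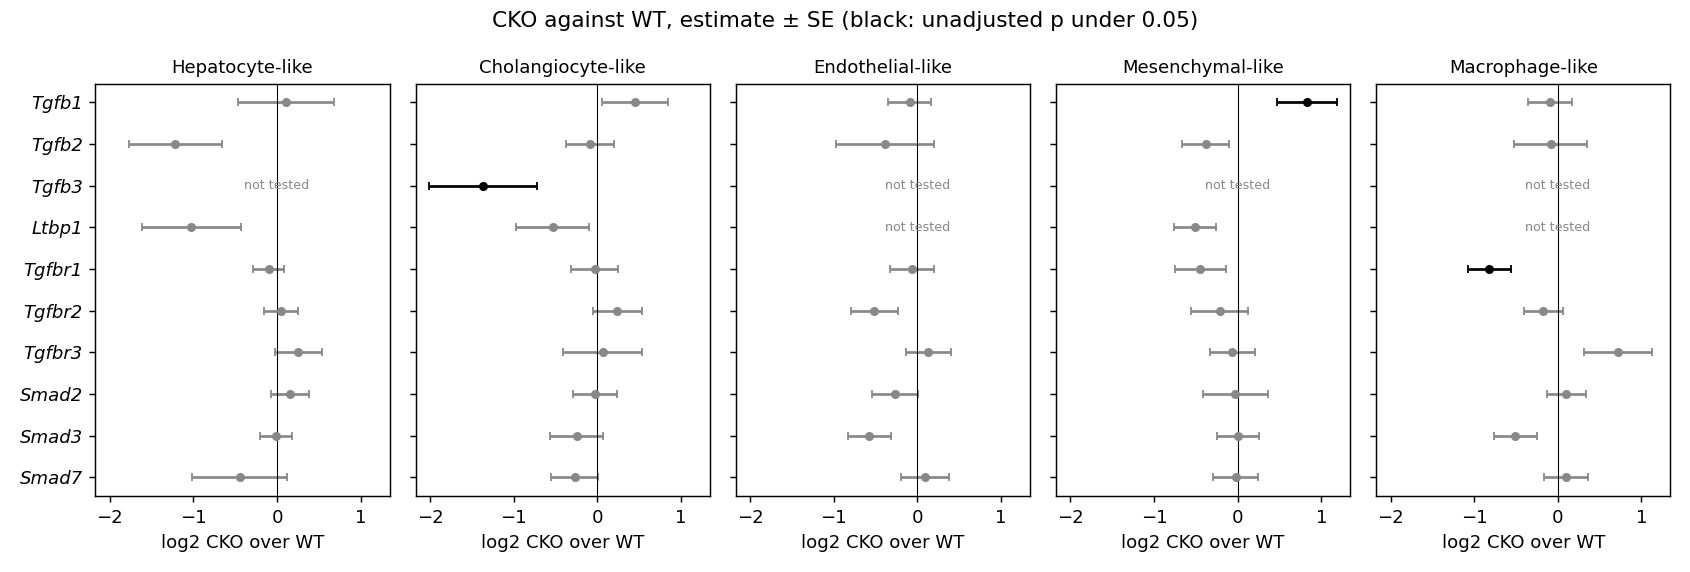
Log2 change of CKO over WT (horizontal axis) with its standard error for each TGF-beta gene in 5 classes, from edgeR fits of 2 against 2 libraries. Black marks an unadjusted p under 0.05, which Tgfb3 in cholangiocyte-like, Tgfb1 in mesenchymal-like and Tgfbr1 in macrophage-like nuclei have; genes under the filter on low counts are marked as not tested.

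Tgfbr1 in macrophage-like nuclei was the pair with the smallest p. Its 775 and 623 CPM in WT against 383 and 310 in CKO did not overlap, and the log2 change was -0.82 (SE 0.26; edgeR quasi-likelihood test, adjusted p = 0.873 over 12218 genes). The change was -0.72 between the first replicates and -0.92 between the second, which share a number only. In this class 4 of 8 tested members (Tgfb2, Tgfbr1, Tgfbr2 and Smad3) were lower and 1 (Tgfbr3) higher in both CKO libraries than in both WT libraries, beside 26.4% and 6.27% of all genes. Under every one of 16 alternatives the Tgfbr1 change stayed negative, from -0.99 to -0.67, with adjusted p from 0.266 to 1.

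Free RNA was higher in both CKO libraries in this class, and CKO replicate 1 stood apart in its own cluster, so both were set beside the result. The estimated free RNA share of macrophage-like nuclei was 66.5% and 73.3% in WT and 76.4% and 78.8% in CKO, and the summed hepatocyte markers in these nuclei (14 genes, none at 0) were 25650 and 26740 CPM in WT and 42390 and 32820 in CKO. The 14 macrophage markers, none of them at 0, summed to 2916 and 2204 CPM in WT and 2357 and 2108 in CKO, which overlapped. With the estimated free RNA taken out, Tgfbr1 stood at 2028 and 2177 CPM in WT and at 1290 and 1326 in CKO, again without overlap, and the fit on those sums gave -0.73 (SE 0.20). The nuclei were also clustered within the class on values centred per library, an alternative chosen after the data were seen. A group so formed need not hold the same kind of nuclei in each library. In the sub-cluster led by Cd163, a scavenger receptor of resident macrophages, Tgfbr1 stood at 524, 450, 254 and 270 CPM, and in the sub-cluster led by Nfatc2 at 1043, 803, 500 and 319. In the third with 20 or more nuclei per library, led by Tmem267, it stood at 956, 722, 474 and 491. Both CKO libraries lay below both WT libraries in each of the 3, with log2 changes of -0.74 (SE 0.28), -0.99 (SE 0.37) and -0.73 (SE 0.38), in the order Cd163, Nfatc2 and Tmem267. In that order the sub-clusters made up 43.2%, 35.2% and 15.2% of the class in WT replicate 1, 40.5%, 42.2% and 12.1% in WT replicate 2, 44.0%, 36.0% and 16.1% in CKO replicate 1, and 50.3%, 30.2% and 14.8% in CKO replicate 2. The Nfatc2 group was smaller and the Cd163 group larger in CKO replicate 2 than in WT replicate 2, and both differed little between the first replicates. Centring takes out differences in mean between libraries, so these shares cannot show whether the class was made up alike in them. Adjusted p was 0.846, 0.652 and 0.999 in turn.

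**Figure D3:**
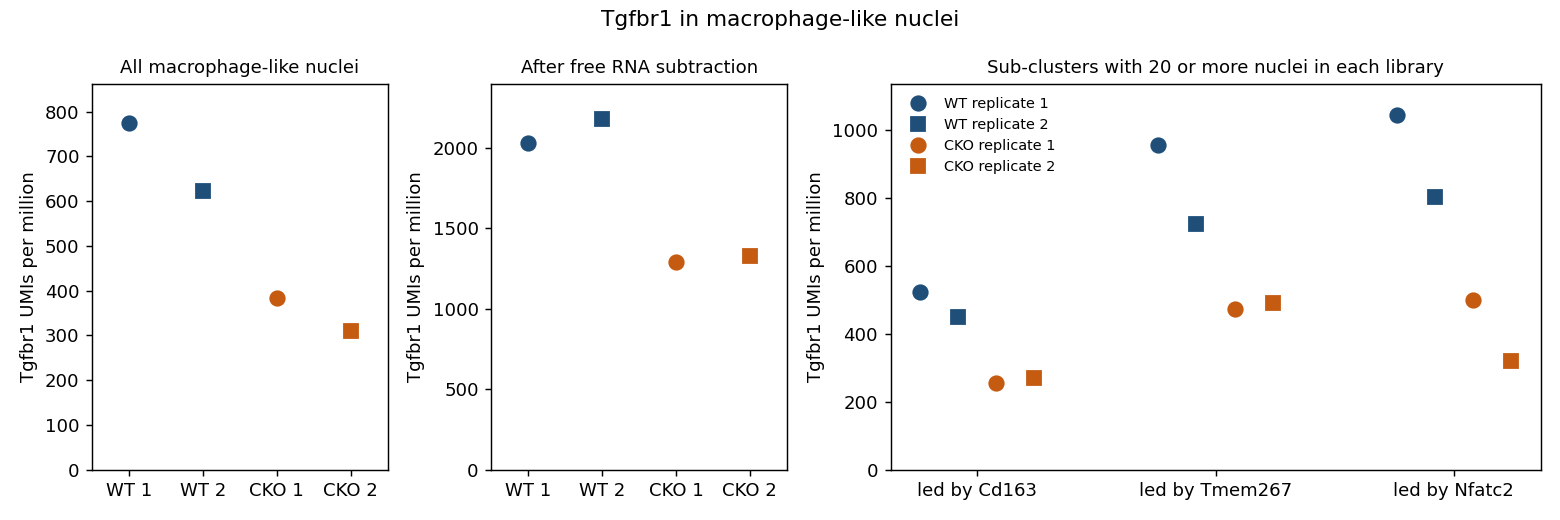
Tgfbr1 CPM (vertical axes, from 0) in macrophage-like nuclei by library: the whole class, the class after the estimated free RNA was taken out, and the 3 sub-clusters with 20 or more nuclei in each library, named by their leading gene. The WT libraries lie above the CKO libraries in every panel, for example 2028 and 2177 against 1290 and 1326 after subtraction.

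In mesenchymal-like nuclei the ligand Tgfb1 was the gene with the smallest p. Its CPM of 36.6 and 16.4 in WT and 52.9 and 34.0 in CKO (73, 7, 55 and 6 UMIs) overlapped, with a log2 change of 0.83 (SE 0.36; edgeR, adjusted p = 0.632). With the estimated free RNA taken out, Tgfb1 stood at 46.4 and 26.9 CPM in WT and 101 and 96.5 in CKO, without overlap, and the fit on those sums gave 1.34 (SE 0.56; edgeR, adjusted p = 1). Of the 6 Tgfb1 UMIs of CKO replicate 2, 5 were in a sub-cluster of 12 of its nuclei led by Mecom. The endothelial markers Tek and Pecam1 were also among the leading genes of that sub-cluster. In the sub-cluster led by Ptprt, Tgfb1 stood at 24.15, 9.39, 65.8 and 0 CPM (12, 1, 44 and 0 UMIs). Ltbp1 in the whole class, by contrast, was lower in both CKO libraries, at 90.4 and 73.8 CPM against 148 and 117. Its log2 change was -0.51 (SE 0.25, edgeR, adjusted p = 0.703), with changes of -0.50 and -0.59 between the first and between the second replicates. With free RNA subtracted the Ltbp1 change was -0.28 (SE 0.28), from 328, 298, 265 and 260 CPM, and after thinning to equal totals it was -0.18 (SE 0.34). In this class 4 of 9 tested members (Tgfb2, Tgfbr1, Tgfbr3 and Ltbp1) were lower in both CKO libraries and 0 higher, beside 27.1% and 9.78% of all genes. Tgfbr3 (329 and 262 against 253 and 255 CPM) had a change of -0.06 (SE 0.27), Tgfbr2 (194 and 168 against 188 and 68.1) of -0.22 (SE 0.35) and Smad7 (107 and 95.8 against 105 and 62.4) of -0.02 (SE 0.27). All 3 were smaller than their errors (adjusted p 0.954 to 0.999).

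The shares of sub-clusters in the mesenchymal-like class also differed between the WT and CKO libraries, which was not tested. The sub-clusters rest on values centred per library, so a group need not hold the same kind of nuclei in each library. Within the class, a sub-cluster led by Ptprt and Neto1 held 27.1% and 27.9% of nuclei in WT and 65.5% and 67.8% in CKO. Sub-clusters led by Lsamp (33.6% and 21.9% against 9.18% and 8.89%) and Kcnq3 (27.3% and 28.9% against 18.1% and 2.22%) were smaller in both CKO libraries. A group led by Mecom, with the endothelial markers Tek and Pecam1 among its leading genes, held 4.24% and 10.95% in WT and 5.21% and 13.3% in CKO. Among the leading genes of the Ptprt group, Sult1e1 also led a cluster of CKO replicate 1 barcodes that resembled free RNA. Cyp2b9, another of them, was also a leading gene of the hepatocyte-like cluster of that library. The TGF-beta genes were not spread evenly over the sub-clusters. With libraries summed, Ltbp1 stood at 136 CPM in the Ptprt group, 153 in the Lsamp group and 42.0 in the Kcnq3 group, and at 340 in a small group of 79 nuclei led by Plcxd3 and Wt1. By library the order of the first 2 groups differed, with 197 and 141 CPM in the Ptprt group and 164 and 130 in the Lsamp group of the WT libraries, and 105 and 115 in those of CKO replicate 1. Tgfbr3 was highest in the Lsamp group (417) and lowest among the larger groups in the Kcnq3 group (158). Tgfbr2 ran the other way, at 329 in the Kcnq3 group against 138 and 127 in the Ptprt and Lsamp groups, and 17 of the 28 Tgfb3 UMIs of the class were in the Kcnq3 group. In the Ptprt group alone, the one with 20 or more nuclei in each library, Ltbp1 stood at 197 and 141 CPM in WT and 105 and 52.8 in CKO (98, 15, 70 and 6 UMIs), a log2 change of -0.85 (SE 0.38; edgeR, adjusted p = 0.938). The estimated free RNA share of the class was 55.9% and 61.4% in WT and 66.7% and 72.0% in CKO. How far group shares enter the values of the class was not tested.

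**Figure D4:**
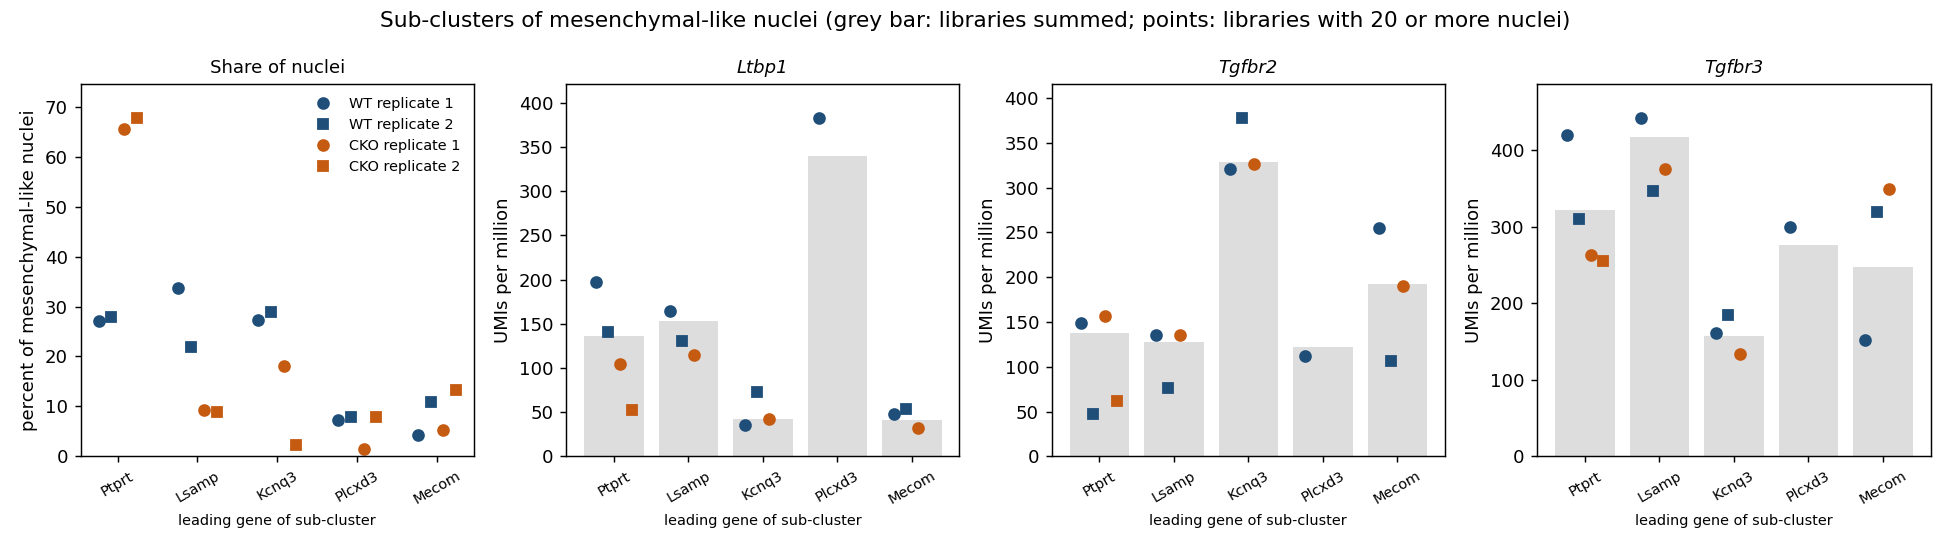
Share of mesenchymal-like nuclei (left, percent of the library's nuclei of the class) and CPM of Ltbp1, Tgfbr2 and Tgfbr3 in 5 sub-clusters named by their leading gene; grey bars sum the libraries and points are libraries with 20 or more nuclei. The Ptprt group makes up 27.1% and 27.9% in WT and 65.5% and 67.8% in CKO, and Tgfbr2 is highest in the Kcnq3 group. The Mecom group has the endothelial markers Tek and Pecam1 among its leading genes.

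In cholangiocyte-like nuclei the largest estimate was that of Tgfb3, whose 65 and 8 UMIs in WT against 8 and 0 in CKO gave a log2 change of -1.37 (SE 0.64; edgeR, adjusted p = 0.837). Both CKO libraries (5.40 and 0 CPM) lay below both WT libraries (14.8 and 12.3), as 20.7% of all genes did in this class. CKO replicate 2 has 64719 UMIs in this class, so that its count of 0 allows a level of up to 46.4 CPM (3 counts, counting error only), above the WT values: a fall in that library was not detectable at this depth. The major ligand of the class, Tgfb2 (160 and 110 against 140 and 61.8 CPM), had a change of -0.09 (SE 0.28), Smad3 (245 and 227 against 230 and 92.7) of -0.25 (SE 0.31) and Smad2 (105 and 98.1 against 101 and 77.3) of -0.02 (SE 0.26). For these 3 genes CKO replicate 1 lay within the WT range, and only CKO replicate 2, with 4 to 6 UMIs a gene, was lower. Tgfb3 was the only member of the 10 tested without overlap in this class; 9.29% of all genes were higher in both CKO libraries and 0 members were. Without CKO replicate 2 the changes of Tgfb2, Smad3 and Smad2 turned to 0.062, 0.0041 and 0.039.

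In hepatocyte-like nuclei estimates ran from -1.22 for Tgfb2 to 0.25 for Tgfbr3. Tgfb2 stood at 24.2 and 15.3 CPM in WT and 12.6 and 3.89 in CKO, which did not overlap, and at 24.0, 14.2, 10.5 and 4.01 with the estimated free RNA taken out. The change of -1.22 (SE 0.56; edgeR, adjusted p = 1) became -2.17 (SE 0.37) and passed (edgeR, adjusted p = 0.0377) when CKO replicate 1 was left out, a fit in which the lone CKO library is assumed to vary like the WT libraries and in which 289 of 14070 genes passed. Hepatocyte-like nuclei also carried cholangiocyte markers (14 genes, none at 0) that summed to 1168 and 831 CPM in WT and 858 and 469 in CKO, and whether these account for part of the Tgfb2 counts was not tested. There 3 of 9 tested members (Tgfb2, Tgfbr1 and Ltbp1) were lower and 1 (Tgfbr3) higher without overlap, beside 16.9% and 7.67% of all genes. In endothelial-like nuclei 4 of 8 (Tgfb2, Tgfbr2, Smad2 and Smad3) were lower and 0 higher, beside 27.5% and 6.7%, with estimates from -0.57 for Smad3 to 0.13 for Tgfbr3. Smad3 in that class stood at 107, 84.4, 59.7 and 51.4 CPM, and at 262, 259, 204 and 231 with the estimated free RNA taken out. Tgfb1 in macrophage-like nuclei, its highest class, differed by -0.09 (SE 0.26) and its libraries overlapped.

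Over all kept nuclei of a library, where fewer nuclei of a class and less RNA per nucleus cannot be told apart, 0 of 10 members were called and 0% of 16794 genes passed (edgeR). At an unadjusted p under 0.05 there were 0 members, beside 0.863% of all genes lower and 0.578% higher. Tgfb2, Tgfb3, Ltbp1 and Smad7 were lower in both CKO libraries (4 of 10, beside 19.7% of all genes) and 0 were higher (3.42%). Ltbp1 stood at 16.7 and 8.05 CPM in WT and 6.77 and 4.09 in CKO (-0.87, SE 0.40), and mesenchymal-like nuclei were 684 of 13952 and 201 of 6144 kept barcodes in WT and 403 of 13952 and 90 of 4969 in CKO. Tgfbr1 at this level was 271, 129, 159 and 91.3 CPM, which overlapped.

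Whether the change of a member differed between classes was tested by the interaction of genotype and class in one edgeR fit of the class sums. None of the 10 passed, while 0.0871% of 13778 genes did. At an unadjusted p under 0.05 there was 1 of 10, Tgfbr1 (F = 3.63; edgeR, adjusted p = 1), beside 3.53% of all genes. In the separate fits of each class its estimates were -0.82 in macrophage-like, -0.45 in mesenchymal-like, -0.10 in hepatocyte-like, -0.06 in endothelial-like and -0.03 in cholangiocyte-like nuclei. Without CKO replicate 2 this test of Tgfbr1 passed. CKO replicate 1, whose macrophage-like nuclei formed a cluster of their own, was then the only CKO library. Genotype and library could not be told apart in that fit, so it does not show an effect of genotype. With all libraries and free RNA subtracted, no member had an unadjusted p under 0.05 in the test between classes (edgeR).

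The rest of the pathway was read from 5 lists with 58 genes in all: latency and activation, other receptors of the superfamily, other SMADs, modulators of SMAD signalling, and response genes. Between 43 and 52 of the 58 were tested per class and 0 passed the adjusted threshold in either direction in any class. At an unadjusted p under 0.05, mesenchymal-like nuclei had 9 of 45 lower and 0 higher, beside 3.54% and 3.91% of all genes. The 9 were the response genes Col1a1, Col1a2, Col3a1, Ccn2 and Tagln, the latency and activation genes Itgb8, Itgb5 and Ltbp2, and the modulator Ldlrad4. The 3 collagen genes are also among the 16 markers from which the class was named, and Ltbp2 is among the leading genes of the Kcnq3 group, which was smaller in CKO. Itgb8, an integrin chain that releases latent TGF-beta, stood at 72.2, 44.4, 24.0 and 11.3 CPM (-1.38, SE 0.36, adjusted p = 0.386), and Col1a2, a collagen I chain, at 238, 231, 133 and 90.8 (-0.86, SE 0.28, adjusted p = 0.503). Ccn2, a matricellular target gene, stood at 57.7, 79.5, 30.8 and 17.0 CPM. In all 3, which were named for their small p, both CKO libraries were below both WT libraries, as they were for 27.1% of all genes in this class. The median change of the tested latency and activation genes was -0.57 (8 of 11 negative) and of the response genes -0.52 (7 of 11 negative), against 0.01 over all genes, while other receptors and other SMADs had medians of 0.01 and 0.22. Free RNA accounted for 9.49% of the Col1a2 UMIs and 11.1% of the Itgb8 UMIs of this class.

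**Figure D5:**
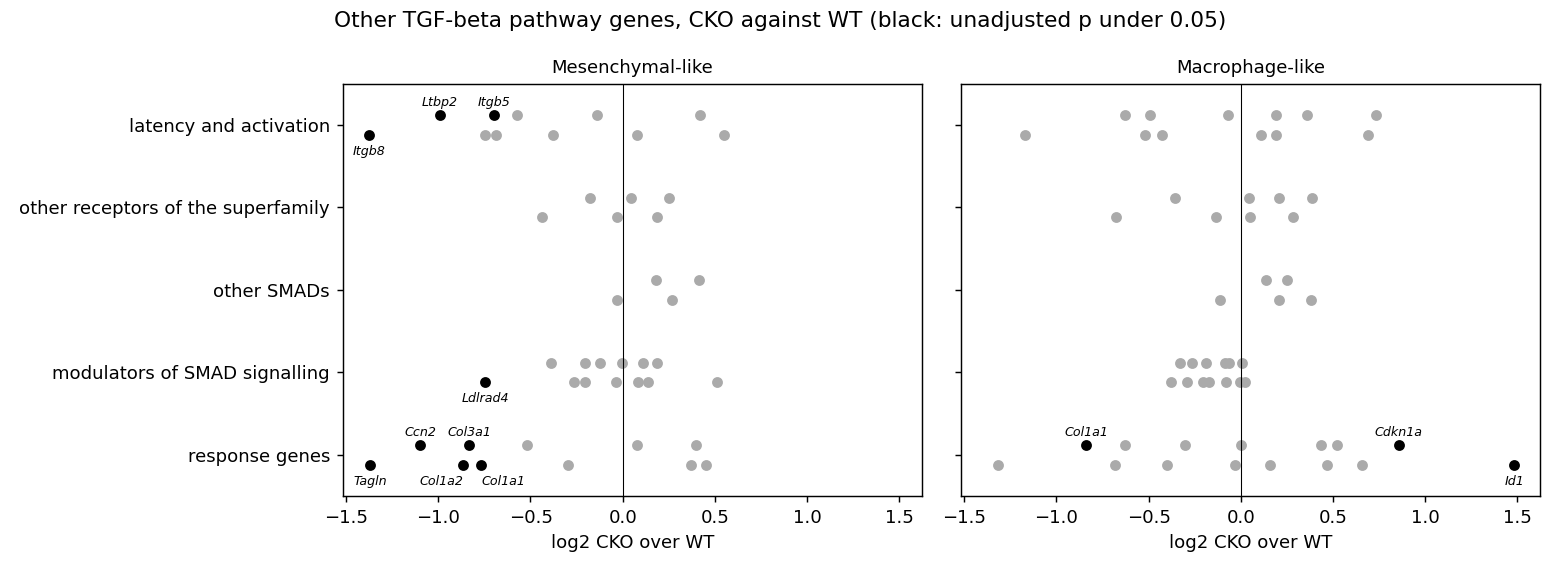
Log2 change of CKO over WT (horizontal axis) of the other TGF-beta pathway genes by list in mesenchymal-like and macrophage-like nuclei, each point a gene that passed the filter on low counts. Black points with names have an unadjusted p under 0.05: 9 genes in mesenchymal-like nuclei, all below 0, and 3 in macrophage-like nuclei on both sides of 0.

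In macrophage-like nuclei 2 of 52 were higher and 1 lower at that level, beside 3.22% and 2.15% of all genes. Id1, a target of the BMP branch of the family, stood at 9.88, 8.95, 25.2 and 15.8 CPM (1.48, SE 0.36, adjusted p = 0.801), and free RNA accounted for 83.5% of its UMIs. Col1a1 was lower (-0.84, SE 0.34), with 95.9% of its UMIs in this class accounted for by free RNA. Itgb5, the gene whose level over classes was most like that of Tgfbr1, stood at 375, 307, 225 and 199 CPM there. In cholangiocyte-like nuclei 4 of 43 were higher and 1 lower, beside 2.87% and 3.01% of all genes. Cdkn1a, a cell cycle inhibitor, stood at 20, 23.0, 47.3 and 0 CPM (1.14, SE 0.38, edgeR, adjusted p = 0.404). Col1a2 stood at 29.3, 7.66, 9.45 and 0 (-1.29, SE 0.56, edgeR, adjusted p = 0.745). In both the groups overlapped, and CKO replicate 2 had no UMI. In hepatocyte-like nuclei 1 of 47 was lower, beside 0.921% of all genes: Col3a1 at 25.6, 14.9, 10.4 and 8.14 CPM (-1.05, SE 0.32; edgeR, adjusted p = 1), of which 92.6% was accounted for by free RNA. In endothelial-like nuclei 1 of 43 was higher (3.07%) and 1 lower (1.75%): Bhlhe40 at 36.4, 44.6, 64.2 and 40.4 CPM (0.74, SE 0.32) and Col1a1 at 26.9, 23.5, 8.39 and 0 (-1.70, SE 0.56), for both of which free RNA accounted for nearly all UMIs (97.3% and 119% of those counted, the estimate exceeding the count for Col1a1).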

How the data were processed

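The deposited count matrices hold raw UMI counts, which the authors made with Cell Ranger 5.0.1 on mm10, per the submitters' processing notes, from 10x Genomics libraries of frozen liver nuclei with paraformaldehyde added to the homogenate, per the labels' protocols. The deposited counts are not normalised, and 7 added sequences that name no mouse gene were left out. The labels give group and replicate. Replicate numbers mark no shared batch in the labels, and the tests as reported do not pair libraries by them.

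All 43664 barcodes have 500 or more detected genes. The highest Scrublet scores (0.8% per 1000 barcodes) were removed per library. Counts were scaled to 10000, log-transformed, and 2000 variable genes without the 10 members, 30 principal components, 15 neighbours and Leiden resolution 1 (scanpy 1.11.5, igraph 0.11.9, Python 3.11.15) gave 21 clusters. A cluster took a class name with 3 or more markers at 1.5 times the free RNA level or more, where free RNA is the profile of the lowest 10% of barcodes by UMIs; clusters whose profile was nearly that of free RNA stayed unnamed. This naming rule and the sub-clusters (Leiden resolution 0.4) were set after the data were seen. Shares of free RNA scale the profile of unnamed barcodes to 15 secreted hepatocyte transcripts (for hepatocyte-like nuclei, to mitochondrial ones); unnamed barcodes may hold some RNA of the classes themselves.

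The UMIs of each class were added up by library, and all genes were tested in R 4.3.3 with edgeR 4.0.16 (low counts removed by filterByExpr, TMM, two-sided quasi-likelihood tests, Benjamini-Hochberg over all genes tested, threshold 0.05), after a test on simulated data. Changes between same-numbered libraries have prior count 2 and are descriptions. Alternatives were DESeq2 1.42.0, RLE scaling, no filter, each library left out, a replicate block, thinned sums, 1000 genes per barcode, no doublet removal, Leiden resolution 2 and subtraction of free RNA. Members and lists were chosen with earlier results of these data known. Changes are given singly for each member in its highest class and wherever its unadjusted p was under 0.05, other members by range, and of other pathway genes the 2 with the smallest p per class; other values of Smad3, Tgfb2, Tgfbr1 and Ltbp1, and the 9 mesenchymal genes, Rbpj, Itgb5 and other genes beyond the rule were named after their values were seen. Matching used gene identifiers on GENCODE vM21 (GRCm38). One result of the rule for other pathway genes is not reported here.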

Additional observations from a re-analysis of the deposited data

How the results depend on the processing

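The 10 members were refitted under 13 alternatives to the design as reported and, chosen after seeing the data, within 6 sub-clusters. Of the counts of members called between genotypes, all 0 as reported, 2 became 1 and the others stayed at 0. Without CKO replicate 1 Tgfb2 was called in hepatocyte-like nuclei, and without CKO replicate 2 Tgfbr1 by the test between classes. Each of these fits had a single CKO library, so genotype and library could not be told apart in it. With any library left out the counts called ran from 0 to 1 in these 2 tests and stayed at 0 in the other classes and over all kept nuclei. The class contrasts called numbered 37 as reported, 25 after thinning to equal totals, 31 after subtraction of free RNA, and 30 to 37 with a library left out. With a replicate block, which the labels do not call for, 0 members were called in any class, and all genes called were 33 in cholangiocyte-like and 3 in endothelial-like nuclei. Same-numbered libraries deviated together with r from 0.08 to 0.49, over only 2 pairs.

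Of the single changes, 136 kept their direction and side of the threshold and 14 changed sign without passing it. Without CKO replicate 2 these were Tgfb2 (0.062), Smad3 (0.0041) and Smad2 (0.039) in cholangiocyte-like nuclei and Tgfbr2 (0.15) and Smad7 (0.14) in mesenchymal-like nuclei. Without WT replicate 1 they were Tgfb2 in cholangiocyte-like (0.013) and Tgfb1 in macrophage-like nuclei (0.29), and without CKO replicate 1 Tgfbr3 in mesenchymal-like nuclei (0.029). After subtraction of free RNA Smad7 (0.20) and Tgfbr3 (0.11) in mesenchymal-like nuclei changed sign, without doublet removal Tgfb1 in macrophage-like nuclei (0.031), and with 1000 genes per barcode Smad2 in cholangiocyte-like nuclei (0.057). Within sub-clusters it was Smad2 (0.063, led by Adamts16) and Tgfbr2 (0.30, led by Ptprt). The cause was not tested. Leave-one-out values ran from -0.88 to -0.74 for Tgfbr1 in macrophage-like nuclei, from -0.61 to -0.47 for Ltbp1 and from 0.42 to 1.49 for Tgfb1 in mesenchymal-like nuclei, from -1.20 to 0.062 for Tgfb2, -1.39 to 0.0041 for Smad3 and -0.42 to 0.039 for Smad2 in cholangiocyte-like nuclei, from -1.17 to 0.15 for Tgfbr2, -0.14 to 0.029 for Tgfbr3 and -0.45 to 0.14 for Smad7 in mesenchymal-like nuclei, from -0.30 to 0.29 for Tgfb1 in macrophage-like nuclei, and from -1.35 to -1.28 for Tgfb3, which had too few counts to be tested without either first replicate.

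Counts over all genes moved more. The 19 genes called in cholangiocyte-like nuclei became 0 with DESeq2, 112 without the filter, 215 without CKO replicate 2, 75 without CKO replicate 1 and 6 without WT replicate 1 or without WT replicate 2. The 0 in macrophage-like nuclei became 4 with DESeq2, 176 with 1000 genes per barcode and 137 without the filter, the 0 in endothelial-like nuclei 82 and 86 under the last 2, and the 0 in mesenchymal-like nuclei 142 without the filter. Without CKO replicate 1 or CKO replicate 2 the calls were 284 and 302 in endothelial-like, 223 and 341 in mesenchymal-like, 63 and 87 in macrophage-like and 289 and 1 in hepatocyte-like nuclei. Without WT replicate 1 or WT replicate 2 they were 29 and 28 in mesenchymal-like and 0 and 38 in macrophage-like nuclei, and 0 in the endothelial-like and hepatocyte-like ones. Depth limits the second replicates most: in cholangiocyte-like nuclei of CKO replicate 2, 1 UMI is worth 15.5 CPM.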
